A study of Mus musculus with 6 samples.

Results

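The 47 genes described here encode the kinases, kinetochore proteins, checkpoint proteins, condensin subunits and cytokinesis factors that carry a cell through mitosis. They were chosen by name from that machinery, with the genes named Kif left out, and all 47 were found among the 54532 genes of the deposited expression table. The cells were granulosa cells of the mouse ovary, which enclose and feed the oocyte, labelled WT and kept in DMEM/F12 medium with fetal bovine serum as a culture model of premature ovarian failure. One group of 3 libraries received no treatment, and the other group of 3 libraries received cyclophosphamide, an alkylating chemotherapy drug, added after 2 days of adherent culture and left for 24 h. One label of the treated group names an intraperitoneal injection, whereas the protocol and the design describe cultured cells, and the latter is followed here. No dose, strain or age was given in the sources used here. The labels do not say that libraries of a group came from separate cultures or animals, so each p-value reflects the scatter among these samples alone, and that scatter may be technical.

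Entry into mitosis is driven by the kinase CDK1 bound to cyclin A or cyclin B, with Polo-like and Aurora kinases acting beside it. Kinetochores assemble on centromeres and attach chromosomes to spindle microtubules, and the spindle assembly checkpoint holds back the anaphase-promoting complex, a ubiquitin ligase, until every chromosome is attached. The ligase then marks securin and cyclin B for destruction, sister chromatids separate, and the spindle midzone directs cytokinesis. Most of these genes are transcribed in late S and G2 phase, through promoters that carry CCAAT boxes, bound by NF-Y, and a cell cycle genes homology region, bound by the DREAM and MYB-MuvB complexes. Granulosa cells of growing follicles divide rapidly, and these genes are widely used as markers of that proliferation.

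Promoter sequence was examined first, because most of the genes moved together. RefSeq promoter windows of the build GRCm38.p6, each of 300 bases with 250 before the annotated start and 50 after it, were matched by symbol for 39 of the 47 genes, giving 44 windows. Windows of 4 genes that fell are shown with those of the 3 genes that did not. They run 5′ to 3′ on the gene's strand, and capitals mark TTTGAA or TTCGAA (the cell cycle genes homology region) and CCAAT, or the same letters read on the other strand. Pttg1, Plk4 and Spc25 were chosen for display after their values were seen. Windows of Aurka and Birc5 had been planned for display and are left out here. The 4 windows shown of genes that fell all hold both the homology region and CCAAT, as does that of Aurka. The window of Birc5, which also fell, holds neither.
Cdk1 (chr10:69352863-69353162, reverse strand): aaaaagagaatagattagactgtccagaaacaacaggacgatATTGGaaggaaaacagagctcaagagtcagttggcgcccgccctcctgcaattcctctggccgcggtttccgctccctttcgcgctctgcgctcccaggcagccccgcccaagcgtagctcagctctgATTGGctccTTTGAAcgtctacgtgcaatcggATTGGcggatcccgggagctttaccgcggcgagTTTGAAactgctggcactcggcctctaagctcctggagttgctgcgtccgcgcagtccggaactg
Ccnb2 (chr9:70421505-70421804, reverse strand): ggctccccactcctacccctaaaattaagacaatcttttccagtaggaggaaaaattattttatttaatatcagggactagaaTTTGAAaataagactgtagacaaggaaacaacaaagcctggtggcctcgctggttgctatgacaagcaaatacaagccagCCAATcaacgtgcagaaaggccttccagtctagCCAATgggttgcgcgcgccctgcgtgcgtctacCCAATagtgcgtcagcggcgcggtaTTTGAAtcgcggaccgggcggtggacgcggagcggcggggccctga
Plk1 (chr7:122159185-122159484, forward strand): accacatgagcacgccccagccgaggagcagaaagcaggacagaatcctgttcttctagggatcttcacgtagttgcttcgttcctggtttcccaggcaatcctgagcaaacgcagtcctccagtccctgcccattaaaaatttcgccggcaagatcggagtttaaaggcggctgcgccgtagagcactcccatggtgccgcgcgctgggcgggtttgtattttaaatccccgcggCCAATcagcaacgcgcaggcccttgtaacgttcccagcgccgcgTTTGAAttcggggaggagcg
Cdc20 (chr4:118437294-118437593, reverse strand): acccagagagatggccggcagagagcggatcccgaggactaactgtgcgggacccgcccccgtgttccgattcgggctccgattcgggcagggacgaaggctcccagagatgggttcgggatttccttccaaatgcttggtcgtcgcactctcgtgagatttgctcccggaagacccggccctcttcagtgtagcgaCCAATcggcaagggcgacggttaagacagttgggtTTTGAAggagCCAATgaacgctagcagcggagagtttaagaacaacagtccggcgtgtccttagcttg
Pttg1 (chr11:43425932-43426231, reverse strand): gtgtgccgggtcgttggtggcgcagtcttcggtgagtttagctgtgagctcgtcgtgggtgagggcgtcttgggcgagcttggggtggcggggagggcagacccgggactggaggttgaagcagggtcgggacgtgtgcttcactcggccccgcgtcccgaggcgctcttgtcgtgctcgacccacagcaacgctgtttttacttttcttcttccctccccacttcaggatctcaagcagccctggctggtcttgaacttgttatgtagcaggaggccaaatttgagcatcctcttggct
Plk4 (chr3:40799701-40800000, forward strand): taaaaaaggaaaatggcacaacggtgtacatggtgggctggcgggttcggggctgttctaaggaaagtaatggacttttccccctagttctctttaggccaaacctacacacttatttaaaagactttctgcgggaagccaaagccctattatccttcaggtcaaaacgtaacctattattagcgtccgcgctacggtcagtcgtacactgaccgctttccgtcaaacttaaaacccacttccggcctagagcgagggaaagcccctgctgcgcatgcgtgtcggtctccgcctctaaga
Spc25 (chr2:69206164-69206463, reverse strand): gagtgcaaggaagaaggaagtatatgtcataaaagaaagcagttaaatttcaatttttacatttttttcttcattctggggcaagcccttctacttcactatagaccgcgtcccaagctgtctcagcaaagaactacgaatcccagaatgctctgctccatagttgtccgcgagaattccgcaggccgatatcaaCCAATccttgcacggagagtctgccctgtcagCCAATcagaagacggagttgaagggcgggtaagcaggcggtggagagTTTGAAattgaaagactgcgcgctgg

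Letters of the homology region stood in 31 of 44 windows (70.5%), against 13.6% of the 13428 windows of tested genes and 19.2% of all 32851 windows in the reference table. CCAAT stood in 35 of 44 windows (79.5%), against 37.7% for tested genes and 37.4% for all windows. Both occurred in 29 of 44 windows (65.9%), against 5.62% and 7.52%. Letters of an E2F site (TTTGGCGC, TTTCGCGC, TTTCCCGC or TTTGCCGC on either strand) stood in 3 windows (6.82%), against 3.84% and 2.26%, and the Cdk1 window holds one of them. Matches of different motifs that overlap were each counted, and a match is a description of the letters, not a binding site. The windows of Pttg1 and Plk4 hold neither the homology region nor CCAAT, while the window of Spc25 holds 1 homology region and 2 CCAAT. The RefSeq start behind the Pttg1 window lies 270 bases inside the gene as the expression table places it, so the whole window is gene body, and the sequence before the table's own 5′ end of Pttg1 was not searched. In all, 5 windows of 4 genes lie wholly inside the gene. Of these genes, Bub3 and Cenpk each also have a window that reaches before the table's gene start. Cdca8 does not, as its RefSeq start lies 2394 bases inside the gene, yet it is counted among the genes with both matches. The windows of Birc5, Nuf2, Nusap1, Ncaph and Mad2l1, genes that fell, hold neither as well. The 26 genes with both matches in a window had a median log2 fold change of -1.56, and the 13 genes with a window but without both had a median of -1.51.

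**Figure D1:**
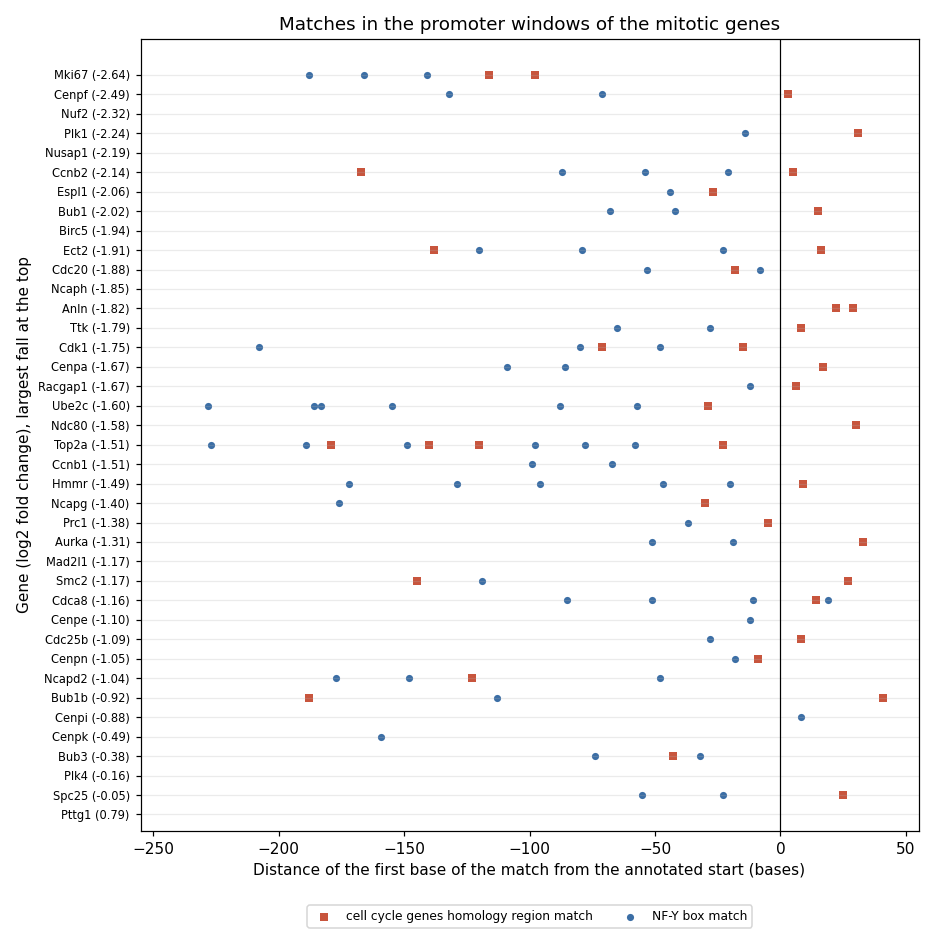
Positions of matches in the promoter windows of 39 mitotic genes, ordered by log2 fold change (in brackets), with distance from the annotated start in bases on the x axis; for the 4 genes with several windows the first in the table is drawn. The homology region lies at a median of -12 bases and CCAAT at a median of -71 bases over all matches. Neither is found in the rows of Pttg1 and Plk4, nor in those of Birc5, Nuf2, Nusap1, Ncaph and Mad2l1, which fell.

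Nearly the whole set was lower with cyclophosphamide. Of the 47 genes, 44 fell, 1 rose and 2 did not pass the threshold (limma on log2(FPKM + 0.1), Benjamini-Hochberg adjusted p under 0.05 over all genes). FPKM counts reads per kilobase of gene length, scaled to the depth of the library. Over the 14751 genes tested, 69.3% changed, 35.9% lower and 33.3% higher, so a changed gene was common in this comparison, while 93.6% of the mitotic genes fell. Their median log2 fold change was -1.51, against -0.02 over all tested genes. The called fall was larger than 2-fold for 37 of them, against 16.6% of tested genes, and larger than 4-fold for 9, against 4.24%. In 45 of the 47 genes every cyclophosphamide library lay below every untreated one, an order found for 37.9% of tested genes, in 1 gene it lay above, as for 35.5% of tested genes, and in 1 gene the groups overlapped. All 47 genes passed the filter on low values, with at least 82 reads in each untreated and at least 32 reads in each cyclophosphamide library. Since the RNA is from bulk cultures, fewer cells in mitosis and less of these transcripts per cell cannot be told apart.

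**Figure D2:**
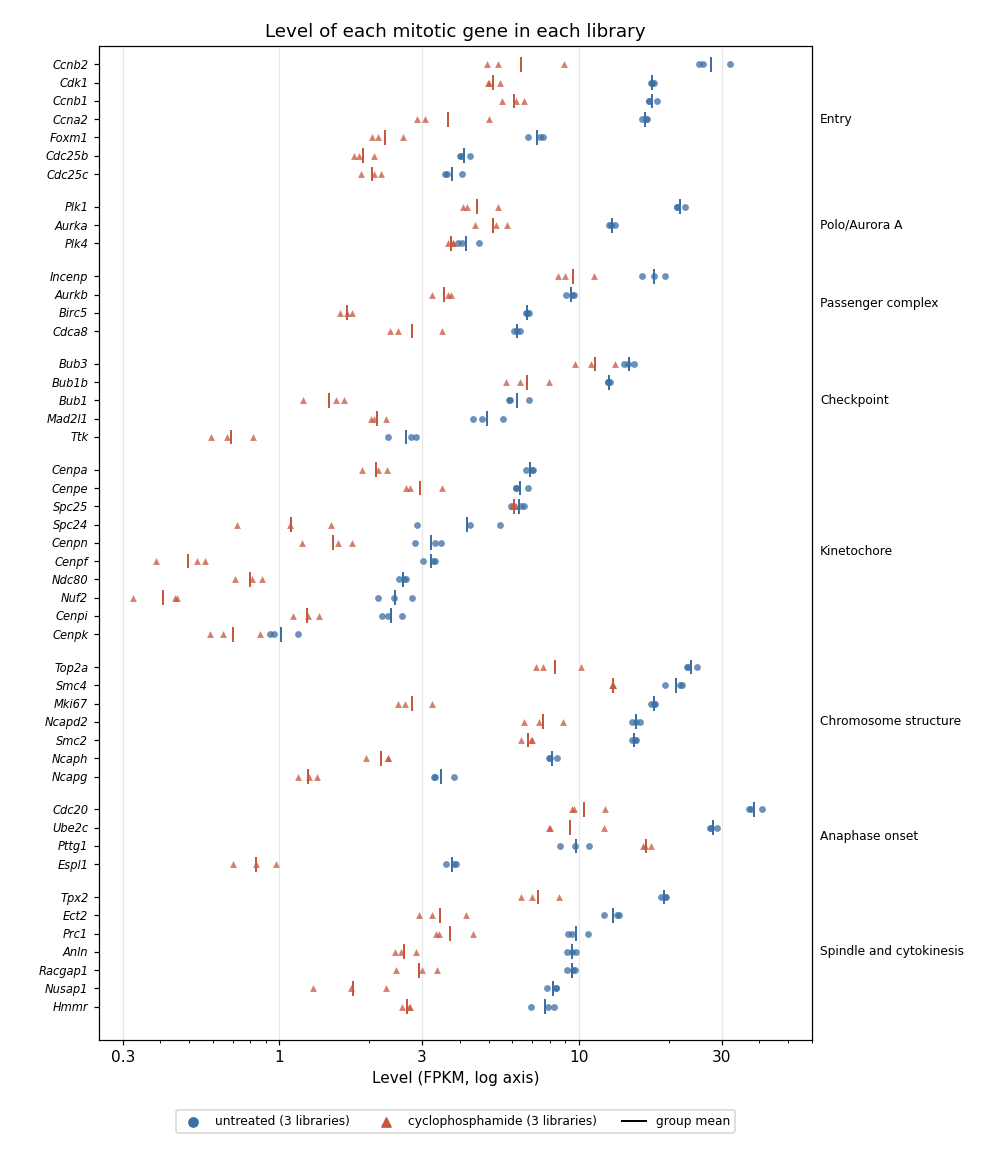
Level of each of the 47 genes in each library, in FPKM on a log axis, grouped by role, with circles for the 3 untreated and triangles for the 3 cyclophosphamide libraries and vertical bars for group means. The triangles lie left of the circles in every row except Spc25, where the groups overlap, and Pttg1, where they lie to the right.

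Added over the 47 genes, the level was 515, 519 and 513 FPKM in the untreated libraries and 228, 189.7 and 189 FPKM in the cyclophosphamide libraries. The summed level with the drug was thus 39.2% of that without it, and the groups were far apart. Among the treated libraries, replicate 1 was the highest for 36 of the 47 genes, with a median of 1.20 times the mean of the other 2 libraries, while it was the highest for 41.9% of all tested genes. That library also stood apart on the second principal component, at -27.4 against 20.1 and 6.25 for the other treated libraries (4.56% of the variance). Without it, 44 genes still fell and 1 rose, with a median of -1.51. Depth was 16458385 to 17607586 reads per library, and the first component (87.1%) separated the groups.

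The granulosa marker Foxl2 had 30.7, 32.6 and 34.2 FPKM in the untreated libraries and 25.5, 22.2 and 23.9 FPKM in the cyclophosphamide libraries, and Inha 1875, 2057 and 2019 FPKM in the untreated libraries and 1087, 805 and 823 FPKM in the cyclophosphamide libraries. Amh had at most 11 reads and Cyp19a1, the aromatase gene, at most 2 reads in any library, so these defining markers were nearly absent. All 8 tested granulosa markers of 10 fell, against 35.9% of all tested genes. Their summed level was 2715 to 2866 FPKM in untreated and 977 to 1276 FPKM in cyclophosphamide libraries. That sum came mostly from Inha and Inhba, and with the drug it stood at 38.5% of untreated. The log2 fold changes of the tested granulosa markers had a median of -1.45, near the -1.51 of the mitotic genes. They ran from -0.45 for Foxl2 to -2.76 for Fst. Of the smooth muscle and pericyte markers 5 of 8 tested were lower and 1 higher, with a summed level of 89.3 to 100.4 against 14.4 to 25.2 FPKM. Acta2 made up most of the untreated sum, with means of 84.6 FPKM untreated and 9.64 FPKM with cyclophosphamide, while Notch3 rose from 1.75 to 6.67 FPKM. Surface epithelium markers (4 of 5 tested lower) summed to 106 to 120.2 against 50.2 to 73.2 FPKM, mostly from Krt8 and Krt18. Theca and stroma markers summed to 29.9 to 35.7 against 16.1 to 17.7 FPKM (2 of 5 tested lower, 1 higher). Macrophage markers summed to 6.17 to 7.01 against 8.99 to 11.3 FPKM (2 of 3 tested higher, 1 lower), endothelial markers to 0.756 to 1.01 against 2.10 to 2.69 FPKM (1 of 3 tested higher), and oocyte markers to 0.936 to 1.33 against 3.33 to 4.77 FPKM (2 of 3 tested higher). The endothelial rise came from Esam (means of 0.261 FPKM untreated and 1.801 FPKM with cyclophosphamide), while the uncalled Cdh5 and Tek had lower means. The macrophage rise came from Csf1r (1.25 and 5.04 FPKM) and Cd68, while Lyz2 fell (2.81 and 1.51 FPKM). The untested C1qa, C1qb and C1qc, with few reads, had lower means. Gdf9 gave the largest part of the oocyte rise. These sums rest on few genes and do not show that the cell types rose. Over all tested genes 35.9% fell and 33.3% rose. With so few markers tested, the counts for theca and stroma, macrophage, endothelial and oocyte markers are no result about those lists. Zp2, Zp3, Nlrp5, Oosp1, Tie1 and Rgs5 were at 0 reads in the untreated and Insl3 in the cyclophosphamide libraries. The part of other cell types in the fall of the mitotic genes was not tested.

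All 7 genes of mitotic entry fell, and the cyclins fell together with their kinase. Cdk1, the kinase that starts mitosis, had 17.4, 17.8 and 17.5 FPKM in the untreated libraries and 5.48, 4.99 and 5.03 FPKM in the cyclophosphamide libraries. The libraries within each group were nearly equal and the groups did not overlap, with a log2 fold change of -1.75 ± 0.07 (SE, adjusted p = 9.2e-07 in limma), or 29.3% of the untreated mean. Ccnb1, the main cyclin B, had 18.2, 17.1 and 17.2 FPKM in the untreated libraries and 6.57, 6.18 and 5.53 FPKM in the cyclophosphamide libraries. It fell by 1.51 on the log2 scale (SE 0.08), to 34.8% of the untreated mean. Ccnb2, a second cyclin B, whose window with 3 CCAAT is printed above, had 25.2, 32 and 26 FPKM in the untreated libraries and 8.93, 4.96 and 5.37 FPKM in the cyclophosphamide libraries, and treated replicate 1 was the highest of its group. Its log2 fold change was -2.14 ± 0.21.

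Ccna2, the cyclin of S phase and early mitosis, showed 16.8, 16.3 and 16.9 FPKM in the untreated libraries and 5.01, 2.88 and 3.08 FPKM in the cyclophosphamide libraries. This was the largest fall of the entry genes (-2.20 ± 0.19), and again treated replicate 1 lay above the other treated libraries. Ccna2 shares 510 exon bases with Exosc9 on the opposite strand, which rose by 0.43, and no strand setting of the counting was given in the sources used here. Foxm1, the transcription factor that activates many genes of this set, had 6.75, 7.6 and 7.4 FPKM in the untreated libraries and 2.6, 2.04 and 2.14 FPKM in the cyclophosphamide libraries, a clear separation with a log2 fold change of -1.65 ± 0.12 (adjusted p = 1e-05, limma). Cdc25b and Cdc25c encode phosphatases that activate CDK1. Cdc25c had 3.56, 3.63 and 4.08 FPKM in the untreated libraries and 2.19, 2.07 and 1.88 FPKM in the cyclophosphamide libraries, and its fall (-0.85 ± 0.12) was the smallest of the entry genes. Cdc25b, which shares 92 exon bases with Spef1 on the opposite strand, had a log2 fold change of -1.09 ± 0.11.

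Of the Polo-like kinase genes, Plk1 fell and Plk4 did not pass the threshold. Plk1, which acts at centrosomes, kinetochores and the midzone, had 21.3, 22.7 and 21.3 FPKM in the untreated libraries and 5.36, 4.24 and 4.11 FPKM in the cyclophosphamide libraries. The groups were far apart, at 21% of the untreated mean with cyclophosphamide, with a log2 fold change of -2.24 ± 0.11 (adjusted p = 1.9e-06, limma). Plk4, the kinase that starts centriole duplication, had 4.63, 3.94 and 4.08 FPKM in the untreated libraries and 3.79, 3.8 and 3.65 FPKM in the cyclophosphamide libraries. The groups did not overlap, yet the difference was small and did not pass the threshold, at -0.16 ± 0.10 (95% interval -0.40 to 0.07, adjusted p = 0.18 in limma). This interval does not reach that of Plk1 (-2.48 to -1.99). Aurka, the Aurora kinase of centrosomes and spindle poles, had 13.2, 12.9 and 12.6 FPKM in the untreated libraries and 5.76, 4.5 and 5.31 FPKM in the cyclophosphamide libraries. It fell to 40.2% of the untreated mean, with a log2 fold change of -1.31 ± 0.10.

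All 4 genes of the chromosomal passenger complex fell, by unequal amounts. This complex corrects faulty attachments at centromeres and later moves to the midzone. Aurkb, its kinase, had 9.49, 9.67 and 9.1 FPKM in the untreated libraries and 3.65, 3.75 and 3.24 FPKM in the cyclophosphamide libraries, with no overlap and a log2 fold change of -1.39 ± 0.09. Birc5, which encodes survivin, had 6.83, 6.67 and 6.7 FPKM in the untreated libraries and 1.68, 1.75 and 1.6 FPKM in the cyclophosphamide libraries. The fall of Birc5 (-1.94 ± 0.10) was the largest of the complex, and its libraries hardly varied within a group. Incenp, the scaffold, had 16.2, 19.4 and 17.9 FPKM in the untreated libraries and 11.2, 8.5 and 9.01 FPKM in the cyclophosphamide libraries. It fell by 0.90 (SE 0.12), the smallest fall of the complex, and remained the most abundant of the 4 transcripts per length in every library. Cdca8, which encodes borealin, had a log2 fold change of -1.16 ± 0.15, and shares 232 exon bases with 9930104L06Rik on the opposite strand.

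Of the ratios of these transcripts to Aurkb, those of Birc5 and Incenp lay apart between the groups. Birc5 stood at 0.72, 0.69 and 0.736 times the FPKM of Aurkb in the untreated and 0.46, 0.468 and 0.493 times in the cyclophosphamide libraries. Incenp stood at 1.71, 2.01 and 1.97 times and 3.07, 2.27 and 2.78 times. Neither pair of groups overlapped, with log2 changes of -0.59 and 0.51, whereas the ratio of Cdca8 to Aurkb overlapped between the groups. Among 11 ratios computed, 10 between subunits of a complex and 1 between Ccnb2 and Ccnb1, 8 had no overlap. Each of these had an exact permutation p of 0.10 (two-sided), the smallest that 3 against 3 libraries allow, or 0.138 after Benjamini-Hochberg adjustment over the 11. Among all tested genes, taken singly, 37.9% lay lower and 35.5% higher without overlap. The share for ratios of other gene pairs was not computed, so the count of 8 is no result about these complexes.

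All 5 spindle checkpoint genes fell, Bub3 least. Bub1, a kinetochore checkpoint kinase, had 6.83, 5.86 and 5.91 FPKM in the untreated libraries and 1.65, 1.55 and 1.2 FPKM in the cyclophosphamide libraries. Bub1b encodes the checkpoint inhibitor BUBR1. It had 12.5, 12.5 and 12.7 FPKM in the untreated libraries and 7.97, 5.73 and 6.38 FPKM in the cyclophosphamide libraries. Both showed separate groups, but Bub1 fell to 23.6% and Bub1b to 53.1% of the untreated mean, with log2 fold changes of -2.02 ± 0.14 and -0.92 ± 0.12. Mad2l1, whose product MAD2 binds and restrains CDC20, had 4.74, 4.43 and 5.6 FPKM in the untreated libraries and 2.27, 2.03 and 2.08 FPKM in the cyclophosphamide libraries. It fell by 1.17 (SE 0.12, adjusted p = 6.8e-05 in limma). Ttk, the checkpoint kinase MPS1, had a log2 fold change of -1.79 ± 0.16. Bub3, the adaptor that brings BUB1 and BUBR1 to kinetochores, had 14.2, 14.6 and 15.3 FPKM in the untreated libraries and 13.2, 9.72 and 11 FPKM in the cyclophosphamide libraries. Here treated replicate 1 came close to the untreated libraries, and the log2 fold change was -0.38 ± 0.11 (adjusted p = 0.015, limma). Without untreated replicate 3 the value was -0.35 and the adjusted p in limma 0.052. Fgfr2, which spans all of Bub3 on the opposite strand, fell by 1.62, and the annotated exons of the 2 genes share 0 bases.

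Among centromere and kinetochore genes 9 of 10 fell, and Spc25 did not pass the threshold. Cenpa, the histone H3 variant that marks centromeres, had 6.67, 7.05 and 6.98 FPKM in the untreated libraries and 2.29, 2.14 and 1.89 FPKM in the cyclophosphamide libraries. Its groups were well separated, with a log2 fold change of -1.67 ± 0.11. Cenpe, a motor that moves chromosomes to the spindle equator, had 6.79, 6.17 and 6.18 FPKM in the untreated libraries and 3.48, 2.65 and 2.73 FPKM in the cyclophosphamide libraries, a smaller fall of 1.10 (SE 0.12). Cenpf, a large outer kinetochore protein, had 3.31, 3.27 and 3.02 FPKM in the untreated libraries and 0.531, 0.564 and 0.386 FPKM in the cyclophosphamide libraries. At 15.4% of the untreated mean, Cenpf kept the lowest share of its level among the 47 genes, with a log2 fold change of -2.49 ± 0.16 (adjusted p = 6.7e-06, limma).

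The genes Cenpi, Cenpk and Cenpn of the inner kinetochore network that sits on CENP-A chromatin had smaller falls than Cenpa. Cenpi and Cenpn had log2 fold changes of -0.88 ± 0.14 and -1.05 ± 0.16, and Cenpk one of -0.49 ± 0.18 (adjusted p = 0.041, limma). Cenpk was the lowest of the set in untreated cells, with 0.959, 0.931 and 1.15 FPKM in the untreated libraries and 0.859, 0.651 and 0.586 FPKM in the cyclophosphamide libraries. Treated replicate 1 lay just under the untreated libraries, and the call was lost without any 1 library other than treated replicate 1, at adjusted p values in limma of 0.062 to 0.14. Ppwd1, which shares 233 exon bases with Cenpk on the opposite strand, held 493% of its reads and rose by 0.75.

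The 4 subunits of the NDC80 complex, the main microtubule anchor of the kinetochore, had unequal changes. Ndc80 had 2.6, 2.51 and 2.64 FPKM in the untreated libraries and 0.711, 0.808 and 0.874 FPKM in the cyclophosphamide libraries, and Nuf2, its direct partner, had a lower treated level, at 0.326, 0.449 and 0.456 FPKM after 2.77, 2.14 and 2.41 FPKM in untreated cells. Both fell without overlap, by 1.58 (SE 0.13) and 2.32 (SE 0.17). Spc24 had 2.88, 5.48 and 4.32 FPKM in the untreated libraries and 1.49, 1.08 and 0.72 FPKM in the cyclophosphamide libraries. These were the most variable values within a group, and the groups were still separate, with a log2 fold change of -1.86 ± 0.29. Spc25, which pairs with SPC24 at the base of the complex, had 6.54, 5.93 and 6.4 FPKM in the untreated libraries and 6.15, 6.11 and 5.97 FPKM in the cyclophosphamide libraries. The Spc25 groups overlapped and the log2 fold change was -0.05 ± 0.08 (95% interval -0.23 to 0.14, adjusted p = 0.61 in limma). With upper-quartile scaling the sign was positive, at 0.045.

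The interval of Spc25 lies above and apart from those of Ndc80 (-1.89 to -1.27), Nuf2 (-2.72 to -1.91) and Spc24 (-2.54 to -1.18). In ratios within each library, Spc25 stood at 2.52, 2.37 and 2.42 times the FPKM of Ndc80 without treatment and at 8.66, 7.56 and 6.84 times with cyclophosphamide. Nuf2 stood at 1.06, 0.855 and 0.911 times and 0.458, 0.556 and 0.522 times. Neither ratio overlapped between the groups (log2 changes 1.65 and -0.88, both at the smallest exact permutation p of 0.10). The ratio of Spc24 to Ndc80 overlapped (exact permutation p = 0.60).

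**Figure D3:**
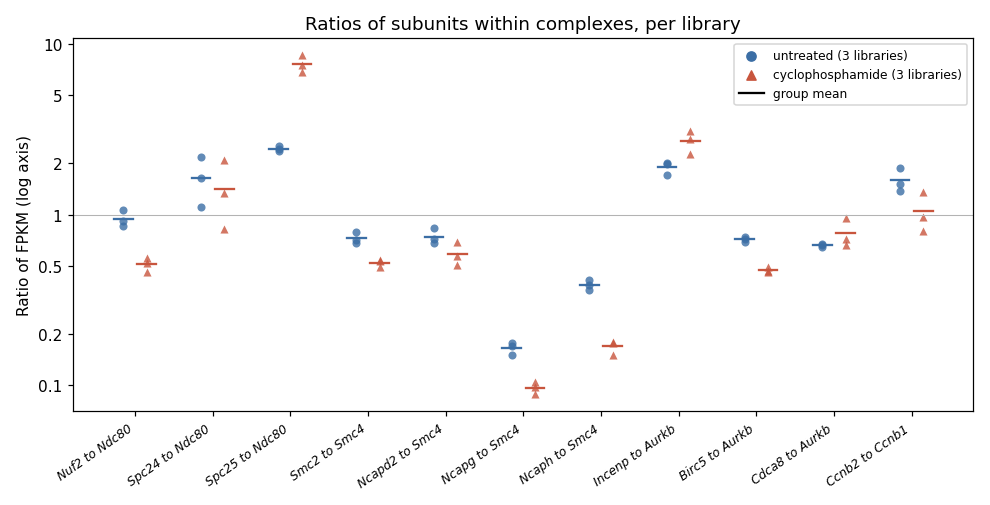
Ratio of FPKM of paired subunits in each library on a log axis, with circles for the 3 untreated and triangles for the 3 cyclophosphamide libraries and bars for group means. Spc25 to Ndc80 is the ratio with the largest separation, and the groups overlap for Spc24 to Ndc80, Ncapd2 to Smc4 and Cdca8 to Aurkb.

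All 7 genes of chromosome structure fell, with Mki67 at the far end. Mki67 encodes Ki-67, which coats mitotic chromosomes and is a widely used marker of dividing cells, and had 18, 17.9 and 17.4 FPKM in the untreated libraries and 3.22, 2.49 and 2.64 FPKM in the cyclophosphamide libraries. The treated mean was 15.7% of the untreated one, for a log2 fold change of -2.64 ± 0.10 (adjusted p = 9.2e-07, limma), the largest fall of the 47 genes on this scale. Top2a, the topoisomerase that untangles sister chromatids, had 24.7, 23.2 and 23 FPKM in the untreated libraries and 10.2, 7.58 and 7.21 FPKM in the cyclophosphamide libraries. It fell to 35.2% of the untreated mean, by 1.51 (SE 0.13). Condensin I, which compacts chromosomes, joins the ATPases SMC2 and SMC4 to subunits encoded by Ncapd2, Ncapg and Ncaph. Smc4 had 22.1, 19.4 and 21.8 FPKM in the untreated libraries and 12.9, 13 and 13 FPKM in the cyclophosphamide libraries. Treated libraries were almost identical for Smc4, and its fall of 0.70 (SE 0.07) was the smallest of this group.

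The kleisin gene Ncaph had a larger change than the ATPase subunits its product bridges. Ncaph went from 8.15 ± 0.262 to 2.19 ± 0.208 FPKM (SD, n = 3), which is -1.85 ± 0.10 on the log2 scale, and Ncapg, Smc2 and Ncapd2 had values of -1.40 ± 0.13, -1.17 ± 0.07 and -1.04 ± 0.11. The ratio of Ncaph to Smc4 was 0.363, 0.411 and 0.388 in untreated and 0.179, 0.177 and 0.15 in cyclophosphamide libraries, without overlap (exact permutation p = 0.10). Smc2 to Smc4 and Ncapg to Smc4 were also lower in every treated library, by -0.48 and -0.78 on the log2 scale. SMC2 and SMC4 also serve condensin II, whose other subunits are counted with cohesin below. Ncapg shares 944 exon bases with Lcorl on the opposite strand, and Lcorl rose by 0.75.

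At anaphase onset 3 of 4 genes fell and securin rose. Cdc20, the activator of the anaphase-promoting complex, was the most abundant transcript of the set in untreated cells, with 37.6, 40.9 and 36.9 FPKM in the untreated libraries and 12.2, 9.47 and 9.67 FPKM in the cyclophosphamide libraries. It fell to 27.1% of that level, by 1.88 (SE 0.10, adjusted p = 3.3e-06 in limma). Cdc20 shares 53 exon bases with Elovl1 on the opposite strand, which was not called (log2 fold change 0.16). Ube2c, the ubiquitin-conjugating enzyme of the complex, had 28.9, 27.5 and 27.6 FPKM in the untreated libraries and 12.1, 8.03 and 7.93 FPKM in the cyclophosphamide libraries, with treated replicate 1 highest, and a log2 fold change of -1.60 ± 0.15. Espl1, which encodes separase, the protease that cuts cohesin, had 3.83, 3.89 and 3.59 FPKM in the untreated libraries and 0.833, 0.976 and 0.701 FPKM in the cyclophosphamide libraries. Its levels did not overlap and fell by 2.06 (SE 0.15).

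Pttg1 encodes securin, the inhibitor that holds separase inactive until anaphase. It had 8.69, 9.74 and 10.9 FPKM in the untreated libraries and 16.3, 17.5 and 16.7 FPKM in the cyclophosphamide libraries. All 3 treated libraries lay above all 3 untreated ones, with a rise of 0.79 (SE 0.09, 95% interval 0.58 to 0.99, adjusted p = 0.00012 in limma), to 172% of the untreated mean. The rise of Pttg1 passed the threshold under each of the 15 alternatives run. With the drug, Pttg1 was the most abundant of the 47 transcripts per length, ahead of Smc4. No gene of the table overlaps it. By GRCm38 coordinates, Pttg1 (ENSMUSG00000020415) lies on chromosome 11, 43420250 to 43426251, Spc25 (ENSMUSG00000005233) on chromosome 2, 69193895 to 69206194 and Plk4 (ENSMUSG00000025758) on chromosome 3, 40800019 to 40816883, and all 3 are annotated as protein-coding.

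All 7 genes of spindle assembly and cytokinesis fell, within a narrow range of -2.19 to -1.38. Nusap1, which bundles spindle microtubules near chromatin, had 8.43, 8.38 and 7.84 FPKM in the untreated libraries and 2.27, 1.73 and 1.3 FPKM in the cyclophosphamide libraries, the largest fall of these (-2.19 ± 0.18), and shares 172 exon bases with Oip5 on the opposite strand. Tpx2, the activator of Aurora A on the spindle, and Hmmr, a spindle pole protein, had log2 fold changes of -1.39 ± 0.11 and -1.49 ± 0.10. Prc1, which crosslinks microtubules of the midzone, had 10.7, 9.18 and 9.47 FPKM in the untreated libraries and 4.44, 3.41 and 3.34 FPKM in the cyclophosphamide libraries. Its fall of 1.38 (SE 0.13) was the smallest of the group and still left no overlap. Prc1 shares 911 exon bases with Rccd1 on the opposite strand, which was not called (log2 fold change 0.23). Ect2, the exchange factor that switches on RhoA at the cell equator, had 13.4, 12.1 and 13.6 FPKM in the untreated libraries and 4.19, 2.92 and 3.22 FPKM in the cyclophosphamide libraries, and Anln, which encodes the contractile ring scaffold anillin, had 9.78, 9.15 and 9.48 FPKM in the untreated libraries and 2.86, 2.54 and 2.44 FPKM in the cyclophosphamide libraries. Both were lower in every treated library, with log2 fold changes of -1.91 ± 0.13 and -1.82 ± 0.09. Racgap1, a centralspindlin gene whose product recruits ECT2, fell from 9.46 ± 0.288 to 2.93 ± 0.459 FPKM (SD, n = 3), by 1.67 (SE 0.12).

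**Figure D4:**
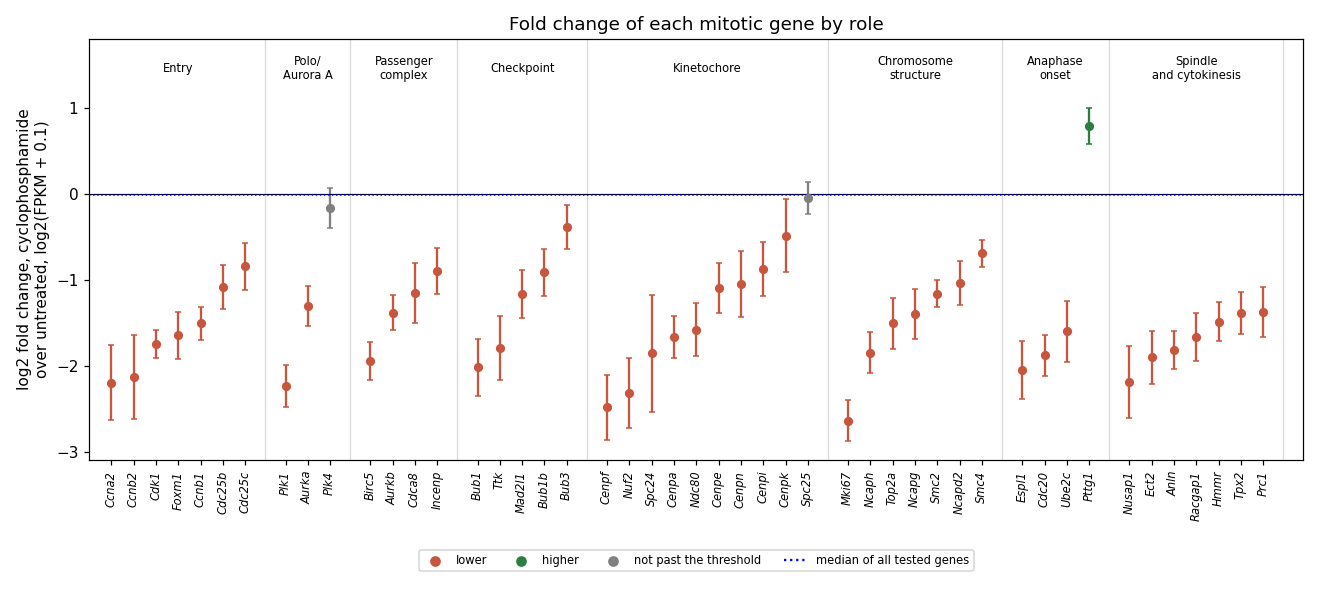
Log2 fold change of each of the 47 genes on the log2(FPKM + 0.1) scale, by role, with 95% intervals from limma. All points lie below 0 except Pttg1 (0.79), and the intervals of Plk4 and Spc25 include 0.

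Across the 47 genes the size of the change had little relation to how high a gene was or how long it is. Spearman correlations across these genes, which share libraries and are not independent replicates, were -0.12 with the untreated FPKM, -0.06 with the span of the gene and -0.08 with the length of its transcripts in the table. The spans ran from 4.45 to 61.1 kb with a median of 23.7 kb, against a median of 20.4 kb for tested genes. Pseudogenes named after Ccnb1 and Ccnb2 could share reads with them, and held at most 205 reads over the 6 libraries. Ccnb2-ps had 44, 41 and 54 reads in the untreated and 28, 25 and 13 reads in the cyclophosphamide libraries. Ccnb2 itself had 630, 855 and 672 reads in the untreated and 225, 136 and 142 reads in the cyclophosphamide libraries. Pseudogenes under other names were not searched for. Of the 47 genes, 18 overlap a gene on the opposite strand, and 11 share exon bases with one (GENCODE M21), where reads cannot be told apart without strand. In 9 genes, Bub3 among them, the overlapping genes held over 10% of the gene's own reads.

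Other genes of mitosis were read from the same fit, in lists written with earlier results of these data known. The other centromere and kinetochore genes largely fell, with 26 of 34 lower, 4 higher and a median of -1.02. That is 76.5% lower, against 35.9% lower and 33.3% higher over all tested genes. Cenpm and Kntc1, of the inner kinetochore and of the complex that recruits checkpoint proteins, fell by 2.48 (SE 0.21) and 2.18 (SE 0.14). The 4 that rose were Cenpq (1.25 ± 0.09), Mad2l1bp (0.86 ± 0.09), which encodes a factor that removes MAD2 from its partners, Dsn1 (0.53 ± 0.09) and Zwint (0.52 ± 0.07). Of 15 regulators of entry and exit, 9 fell (60%, against 35.9% of all tested genes), led by the kinase genes Pbk (-2.59 ± 0.10) and Melk (-2.19 ± 0.19). The 2 that rose were the phosphatase subunit gene Ppp2r2d (0.53 ± 0.10) and Wee1 (0.46 ± 0.09), whose kinase inhibits CDK1, and the median was -0.31.

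Subunits of the anaphase-promoting complex had calls in both directions, 35.3% lower, close to the 35.9% of all tested genes. Of 17 genes, 6 fell, among them Fbxo5, an inhibitor of the complex (-1.93 ± 0.15), and Anapc13 (-0.99 ± 0.28), and 6 rose, including Anapc7 (0.54 ± 0.07), Cdc16 (0.50 ± 0.07), Anapc11 (0.32 ± 0.09) and Fzr1 (0.27 ± 0.07), the activator of late mitosis and G1, with a median of -0.07. Without untreated replicate 3 the number that rose was 3. Of 16 genes of condensin II and cohesin, 7 fell (43.8%) and 6 rose (median -0.12), not far from the 35.9% lower and 33.3% higher of all tested genes, so the counts are no result about this list. The largest called falls were Esco2 (-2.06 ± 0.15) and Cdca5, or sororin (-1.61 ± 0.14), which establish and protect cohesion, while the cohesin loader Nipbl (0.59 ± 0.06), the release factor Wapl (0.57 ± 0.07), Esco1 (0.52 ± 0.09) and Pds5a (0.47 ± 0.08) rose.

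Centrosome and spindle genes were split, with 14 of 29 lower and 8 higher (median -0.24). That is 48.3% lower, against 35.9% lower and 33.3% higher over all tested genes. Aspm, a spindle pole protein gene, and Sass6, which builds the centriole cartwheel downstream of PLK4, fell by 1.65 (SE 0.12) and 1.63 (SE 0.19), and Gtse1 (0.95 ± 0.12), Haus2 (0.89 ± 0.07), Haus7 (0.84 ± 0.09) and Numa1 (0.70 ± 0.06) rose. Of 15 cytokinesis and abscission genes 5 fell, with Cit (-1.97 ± 0.16) and Cep55 (-1.95 ± 0.13), 5 rose, with Ist1 (1.08 ± 0.09), Rock2 (0.85 ± 0.07), Vps4a (0.56 ± 0.09) and Spast (0.46 ± 0.06), and the median was 0.07. Those shares, 33.3% lower and as many higher, are near those of all tested genes and are no result about the list. The DREAM and MYB-MuvB list holds the complexes known to bind such promoter elements. Of its 12 genes 3 fell (25%, against 35.9% of all tested genes), including Mybl2 (-0.80 ± 0.13) and Tfdp2 (-0.72 ± 0.09). Another 6 rose, against 33.3% of all tested genes, and the median was 0.23. Those that rose were led by E2f5 (1.19 ± 0.11), Lin54 (1.04 ± 0.12), whose product contacts the homology region, E2f4 (0.57 ± 0.09) and Lin37 (0.57 ± 0.09). For comparison, 18 of 25 DNA replication genes fell (72%, against 35.9% of all tested genes), with Cdc6 (-1.80 ± 0.19) and Pole (-1.55 ± 0.16). Only Cdt1 rose (0.87 ± 0.11), and the median was -0.92. The differences between lists were not tested.

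**Figure D5:**
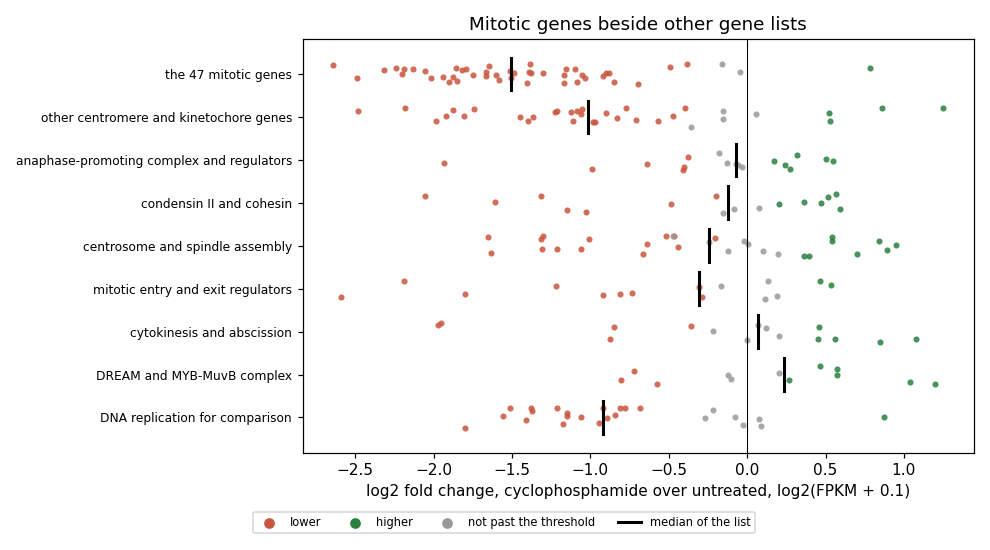
Log2 fold change of the 47 genes and of the members of 8 other lists, on the log2(FPKM + 0.1) scale, with a bar at each list's median. The 47 genes have a median of -1.51, the other kinetochore genes -1.02 and the DNA replication genes -0.92, while the medians of the remaining lists lie between -0.31 and 0.23.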

How the data were processed

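Polyadenylated RNA was sequenced from 3 untreated and 3 cyclophosphamide libraries. The submitters' processing notes name CASAVA, HISAT2 2.0.5 and the build GRCm39. Counting tool and strand setting were not given in the sources used here. The deposited values, in a table named as raw counts, are FPKM made by the authors, as the values show. Multiplied by gene length, 100% of the values were whole multiples of 1 step per library, within 0.01 of a read, and this gave the reads per gene. Of 54495 gene IDs shared with GENCODE M21, 98.3% had the coordinates of GRCm38, so coordinates are read as that build.

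Genes were kept if 3 or more libraries held the equivalent of 10 reads and all libraries together 15, which left 14751. They were fitted on log2(FPKM + 0.1) by limma (3.58.1, R 4.3.3) with an intensity trend, and two-sided p-values were adjusted by Benjamini-Hochberg. This scale understates changes of low genes. The fit was tested on simulated data. Groups followed the sample titles. Members and lists were chosen with earlier results of these data known. In the other lists 4 symbols were matched to an older symbol. All 47 genes are accounted for, with values per library for a fixed panel, for the largest and smallest change of each role and for genes that rose or were not called. From each other list, the 2 largest called falls and up to 4 that rose are named. Alternatives were a replicate block, other scalings, pseudocounts and filters, limma-voom on recovered reads, and leaving out each library. Planned protein comparisons were not run.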

Additional observations from a re-analysis of the deposited data

How the results depend on the processing

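Of the 47 genes, 44 kept their direction and side of the threshold under all 15 alternatives (the exceptions are Bub3, Cenpk and Spc25), and 694 of 705 single values did so. Between 42 and 44 genes fell and 1 rose under each alternative. The median of the set was -1.37 after adding 0.5 FPKM and -1.24 after adding 1 FPKM before taking logs, and -1.53 to -1.44 when 1 library was left out. Spc25, not called under any alternative, was -0.05 as given and 0.045 with upper-quartile scaling. Cenpk, called at an adjusted p of 0.041 in limma, lost its call with the replicate block (adjusted p = 0.076), with scaling to total reads (0.051), with upper-quartile scaling (0.077) and with no filter (0.14), and without any 1 library other than treated replicate 1. Bub3 lost its call without untreated replicate 3. The 6 genes of the anaphase-promoting complex list that rose became 3 to 6 when 1 library was left out. Replicate numbers are shared by the groups in the labels. Deviations of same-numbered libraries had correlations of -0.08, 0.01 and -0.03, and no library correlated best with its own number. With so few libraries these values cannot settle whether same-numbered libraries shared a culture or batch. The replicate block gave 9910 changed genes against 10219, with 43 of the 47 lower. Over all genes the balance was 4919 higher and 5300 lower, and 5529 higher and 4781 lower with upper-quartile scaling. When 1 library is left out, 2 libraries stand against 3 and the genes tested are kept. Depth limits the low genes, such as Cenpk with 53 to 102 and Spc24 with 32 to 246 reads per library.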

Other observations

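Spacing of the CCAAT letters was examined after the windows had been seen. In the Ccnb2 window the 3 matches begin 33 and 33 bases apart, and in the windows of Cdk1 and Spc25 a neighbouring pair begins 32 bases apart. These are examples, as distances between neighbours ran from 3 bases (Ube2c) to 128 bases (another pair of Cdk1). A pair 30 to 36 bases apart stood in 8 of 44 windows (18.2%), against 2.84% of windows of tested genes. Of the 44 windows of the mitotic genes, 47.7% hold 2 or more CCAAT matches, against 13.9% of windows of tested genes and 11.7% of all windows. Whether the spacing itself differs was not tested.

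Outside the 47 genes, 690 tested genes had a window with both the homology region and CCAAT. Of these, 40.4% fell and 31.2% rose, with a median log2 fold change of -0.12. Among the 9746 tested genes with a window but without both matches, 36.7% fell and 33.9% rose, with a median of -0.03. Only the 47 genes were set aside here, so genes of the other mitotic lists remain in these sets. The difference between the sets was not tested. Among windows of the other mitotic lists, 27 of 128 (21.1%) held both.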
